A study of Homo sapiens with 4 samples.

Results

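The A3B peaks of the uveal melanoma cell line 92.1 were described, called against an IgG control from the same line. All 136678 peaks of the deposited list for 92.1 were taken, out of 192845 peaks in both lists of the series, and none was left out. Peaks came from chromatin immunoprecipitation followed by sequencing (ChIP-seq), in which proteins are cross-linked to DNA, the DNA is sheared, and fragments bound by an antibody are sequenced. The 92.1 A3B group was 1 library made with an Abcam antibody to A3B, and the 92.1 IgG group was 1 library made with normal rabbit IgG. Both came from cells in RPMI1640 medium with serum, fixed with formaldehyde, and no treatment or genetic change was listed for either. The series also held an A3B and an IgG library of the line OMM2.3. With 1 library per group there was no replicate, so no difference between samples was tested, and every interval given covers counting error only.

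A3B, or APOBEC3B, is a nuclear enzyme of the APOBEC3 family that removes an amino group from cytosine in single-stranded DNA, turning it into uracil. It prefers a cytosine that follows a thymine. Single-stranded DNA is exposed at replication forks, during repair, and on the displaced strand of an R-loop, where nascent RNA stays paired with its template. 92.1 is an established line grown from a tumour of the pigmented layer of the eye, a cancer usually driven by activating mutations of GNAQ or GNA11. A ChIP-seq peak is a stretch where fragments of the antibody library pile up above a background estimated from the control, and its summit is the highest point of the pile.

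The reference sequence under a few summits shows what the list holds. The first set gives 151 bases centred on the summit of 3 peaks of high −log10 p with a local background under 2 fragments and mostly single-copy sequence. It also gives the strongest peak in ERBB2, the gene with the largest excess of peaks over 5 Mb on either side, described further on. All are from GRCh38, plus strand, with TCA and its complement TGA in capitals, TCA being a preferred context of A3B. A peak in SCARA3, described further on, ranked between the AKAP13 and BLTP3A peaks and is not shown. The AKAP13 window was chr15:85454321-85454471, in an intron. The BLTP3A window was chr6:34804632-34804782, also intronic. The third, chr16:46632586-46632736, was intergenic, 11.3 kb upstream of the nearest protein-coding start, that of SHCBP1, and was taken from several peaks of equal −log10 p. The ERBB2 window was the intronic chr17:39699043-39699193.
AKAP13 peak: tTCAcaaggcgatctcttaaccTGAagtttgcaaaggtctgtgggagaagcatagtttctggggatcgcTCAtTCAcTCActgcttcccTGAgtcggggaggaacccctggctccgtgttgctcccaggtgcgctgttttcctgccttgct
BLTP3A peak: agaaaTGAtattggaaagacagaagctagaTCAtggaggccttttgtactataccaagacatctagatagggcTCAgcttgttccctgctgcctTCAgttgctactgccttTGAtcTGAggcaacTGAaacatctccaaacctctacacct
Peak upstream of SHCBP1: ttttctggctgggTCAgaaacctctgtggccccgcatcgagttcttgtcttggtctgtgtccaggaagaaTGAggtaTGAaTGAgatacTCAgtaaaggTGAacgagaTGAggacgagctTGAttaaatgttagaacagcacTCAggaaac
ERBB2 peak: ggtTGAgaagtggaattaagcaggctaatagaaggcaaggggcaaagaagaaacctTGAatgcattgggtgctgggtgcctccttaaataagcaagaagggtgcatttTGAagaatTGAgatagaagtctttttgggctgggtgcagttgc
They held 6, 7, 9 and 4 copies of TCA or TGA. Over 135327 summit windows of this length the median was 6, the 5th and 95th percentiles were 2 and 10, and 99.6% of windows held at least 1, so such a match is a description of the window and not a site.

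The second set shows the sequence under the 2 nuclear peaks of highest −log10 p, both on chromosome 1 near the end of its short arm. Each lay in a nuclear pseudogene that is a copy of mitochondrial DNA, MTND2P28 or MTATP6P1, and inside an intron of the transcript ENSG00000230021. The windows of 121 bases were chr1:629788-629908 and chr1:633962-634082, and their closest mitochondrial stretches were chrM:4618-4738 and chrM:8793-8913, all GRCh38, plus strand. Capitals mark mismatches between the members of a pair.
MTND2P28 window: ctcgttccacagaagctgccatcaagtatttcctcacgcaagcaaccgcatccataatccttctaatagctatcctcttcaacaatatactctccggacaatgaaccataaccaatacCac
Mitochondrial match: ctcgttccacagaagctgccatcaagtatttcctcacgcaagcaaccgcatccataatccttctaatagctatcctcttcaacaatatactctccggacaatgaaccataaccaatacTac
MTATP6P1 window: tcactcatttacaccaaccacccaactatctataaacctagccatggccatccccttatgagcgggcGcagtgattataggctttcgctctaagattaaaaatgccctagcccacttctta
Mitochondrial match: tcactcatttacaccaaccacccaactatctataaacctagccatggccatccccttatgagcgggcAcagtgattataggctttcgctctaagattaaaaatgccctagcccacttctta
Each pair differed at 1 base, an identity of 99.2%. The first peak rested on 97 fragments over a background of 8.09, and the second on 104 over 12.1, with −log10 p of 68.4 and 59.4. The mitochondrial genome itself was called as a single peak from position 104 to 16465, 98.8% of its 16569 bases, with 310 fragments over a background of 78.3 at the summit. At this identity, fragments from the nuclear copies and from mitochondrial DNA cannot be told apart by these stretches except at the differing base.

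Most peaks rested on very few fragments. The deposited fold enrichment and −log10 p of a peak together fix the number of fragments at its summit and the background, and whole numbers were recovered for all 136678 peaks within a tolerance of 0.002 in −log10 p. The median was 4 fragments. Peaks of 3 fragments made up 14.0% of the list, 4 fragments 43.9%, 5 fragments 29.4%, 6 fragments 9.05%, 7 fragments 2.42%, and 8 or more 1.24%. The background was at its floor of 0.877 fragments, the lowest value it takes in the list, for 39.5% of peaks. Since numbers so small can combine in few ways, the list held only 821 distinct pairs of fold and −log10 p, and 1 pair, 4 fragments over the floor background, covered 26480 peaks (19.4%). The lowest width, 223 bp, was that of 46.8% of peaks. The whole-library read totals were not used here, so precision is read from these fragment numbers. On chromosomes 1 to 22, X and Y lay 135327 peaks, on alternate haplotype sequences 790, and on unplaced or unlocalised sequences 560.

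The first question was how evenly the peaks lay over chromosome arms. Density was counted as summits per Mb of sequence outside assembly gaps, on 39 autosomal arms. The 8q arm had 110.4 summits per Mb (95% Poisson interval 108.3 to 112.5, from 10931 peaks), 6p had 97.7, 8p had 95.3 and 1q had 83.0. These arms held 22.4% of autosomal arm peaks on 11.4% of the sequence. At the other end, 6q had 12.7 summits per Mb (12.01 to 13.3, from 1398 peaks), followed by 10p at 23.5, 3p at 23.9 and 2q at 24.7. The ratio of 8q to 6q was 8.72 (8.25 to 9.22). Between these groups the arms were close together. With cut points chosen after the densities were seen, 25 arms lay from 41 to 68 per Mb, 9 lay under 30, 4 lay over 80 and 1 lay from 30 to 41. The median arm had 52.3. The X arms had 5.82 and 4.74 per Mb, below every autosomal arm.

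**Figure D1:**
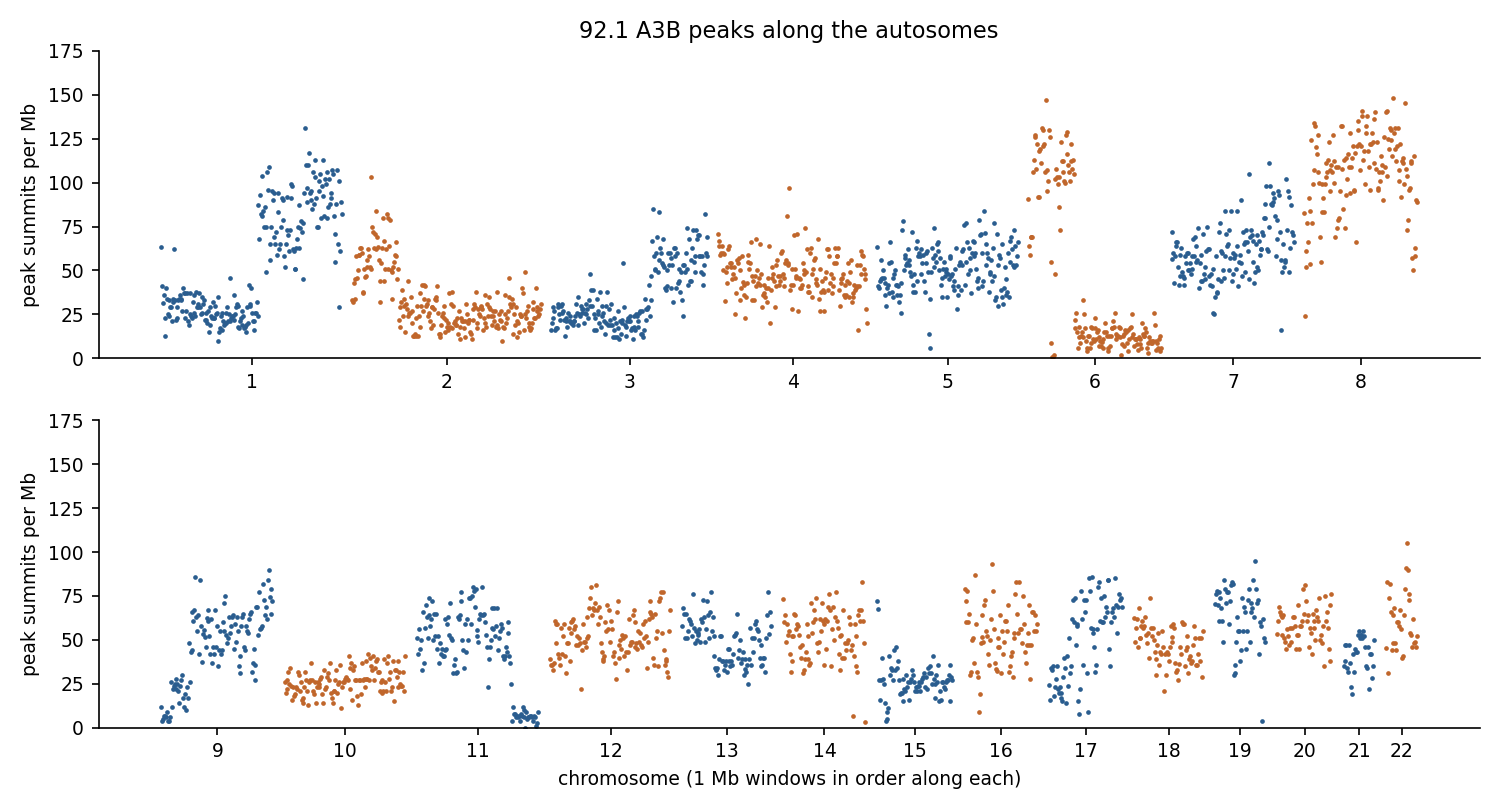
Peak summits per Mb in windows of 1 Mb, in order along chromosomes 1 to 22 (vertical axis in summits per Mb, 1 point a window, colours alternate between chromosomes). The levels step within chromosomes 1, 2, 3, 6, 9 and 11, and both arms of chromosome 8 sit high, at 95.3 and 110.4 per Mb over the whole arm.

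Arms of the same chromosome often differed. The short arm of chromosome 6 had 7.72 times the density of its long arm, the widest gap among autosomes. The long arm exceeded the short arm 3.05-fold on chromosome 1, 2.20-fold on chromosome 17, 1.89-fold on chromosome 9 and 1.87-fold on chromosome 3. On chromosome 2 the short arm was the denser, 1.85-fold. Arms of chromosomes 4, 16, 19 and 20 differed by less than 1.10-fold, and for 16 and 20 the interval of the ratio included 1.

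The background moved with density. Peaks at the floor background made up 0.933% on 8q, 1.76% on 8p, 4.36% on 6p and 16.9% on 1q, against 85.9% on 6q. The median background ran from 0.877 on 6q to 1.32 on 8q and 1.43 on 8p. Peaks of 6 or more fragments made up 34.7% on 8p, 27.8% on 8q and 21.0% on 6p, against 4.01% on 6q. Over the 39 arms, the Spearman correlation between density and the share at the floor was −0.936, and between density and the share with 6 or more fragments 0.806. Those values describe arms that share 1 pair of libraries. The background of a peak is estimated from the IgG library, and its part in the densities was not tested.

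**Figure D2:**
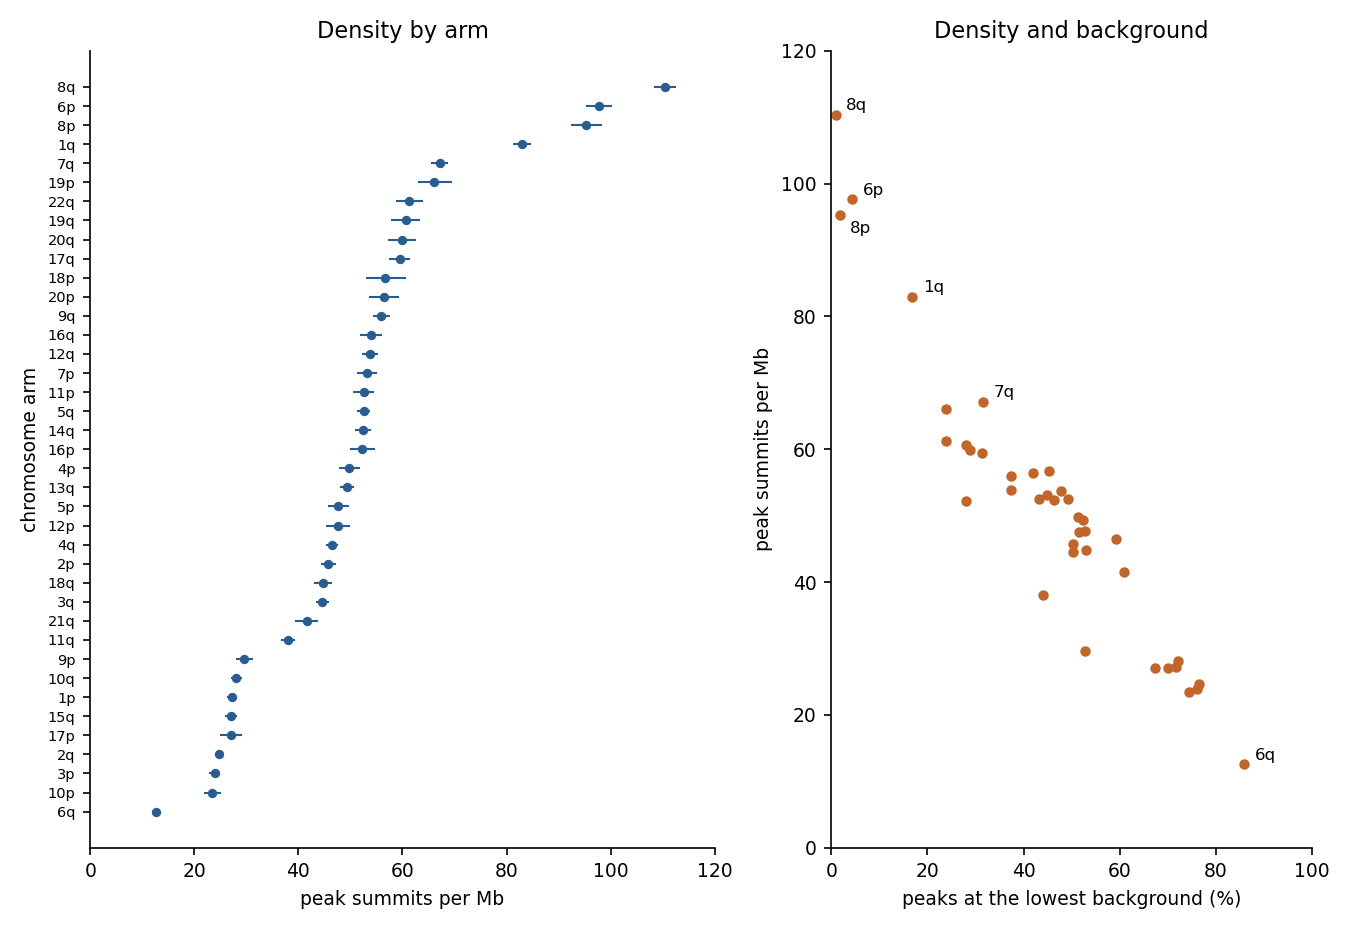
Left, summits per Mb on each of 39 autosomal arms with 95% Poisson intervals (bars). Right, the same densities against the percentage of an arm's peaks at the lowest background. The 4 densest arms have 0.933% to 16.9% of their peaks at that background and 6q has 85.9%.

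Changes of level were also found inside arms. Windows of 1 Mb were split into segments wherever a change of density raised the Poisson log likelihood by at least 15, a setting chosen after the data had been seen, so segment densities are descriptions without a test. This gave 78 segments on 43 arms and 35 steps between neighbours, of which 18 were at least 1.5-fold and 9 at least 2-fold. The steepest was on 11q near 107 Mb, where density fell from 49.2 per Mb (46.6 to 51.9) to 6.46 (5.56 to 7.48) over the last part of the arm, from there to its end, a 7.61-fold step. On 9p it rose from 6.41 in the outer 10 Mb to 20.9 and then to 57.7 near the centromere. On 3q it rose from 23.1 to 55.3 at 127 Mb, and on 2p it fell from 58.5 to 25.8 at 58 Mb. Within 6p, 115.9 per Mb from 6 to 28 Mb gave way to 19.3 (15.98 to 23.2) from 28 to 34 Mb, which holds the major histocompatibility complex, and then to 107.4. On 15q a segment of 13.7 per Mb from 26 to 33 Mb lay between 41.3 and 36. CHEK1, which encodes the checkpoint kinase CHK1, lies in the sparse end of 11q. It held 0 peaks where 0.291 were expected from its surroundings, so its empty state could not be told from the low density there.

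The 6p and 15q dips and the emptiest genes shared a feature of the reference. GRCh38 carries 261 alternate haplotype sequences, second copies of variable regions totalling 109.5 Mb, and peaks had been called on 155 of them, so they were part of the alignment. For each 100 kb window and gene, the share of its single-copy 32-mers (words of 32 bases) that also occur on an alternate haplotype was measured, and this step was added after the data were seen. Autosomal windows with a share of 50% or more held 801 summits where 2754 were expected from the 5 Mb on either side, a ratio of 0.291 (0.271 to 0.312) over 561 windows. Windows with a share under 10% had a ratio of 1.02 (1.01 to 1.02) over 26060 windows. The 174 windows in between had 0.745 (0.688 to 0.806). For protein-coding genes the ratio was 0.280 (0.252 to 0.310) in 731 genes with a share of 50% or more and 1.048 (1.040 to 1.056) in 18288 genes under 10%. The share was 78.1% in the 6p dip and 58.9% in the 15q dip, against 0.625% in the sparse end of 11q, 1.58% in outer 9p, 0.336% in the sparse part of 3q and 0.0157% in that of 2p. How the aligner placed reads that match both copies was not tested.

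**Figure D3:**
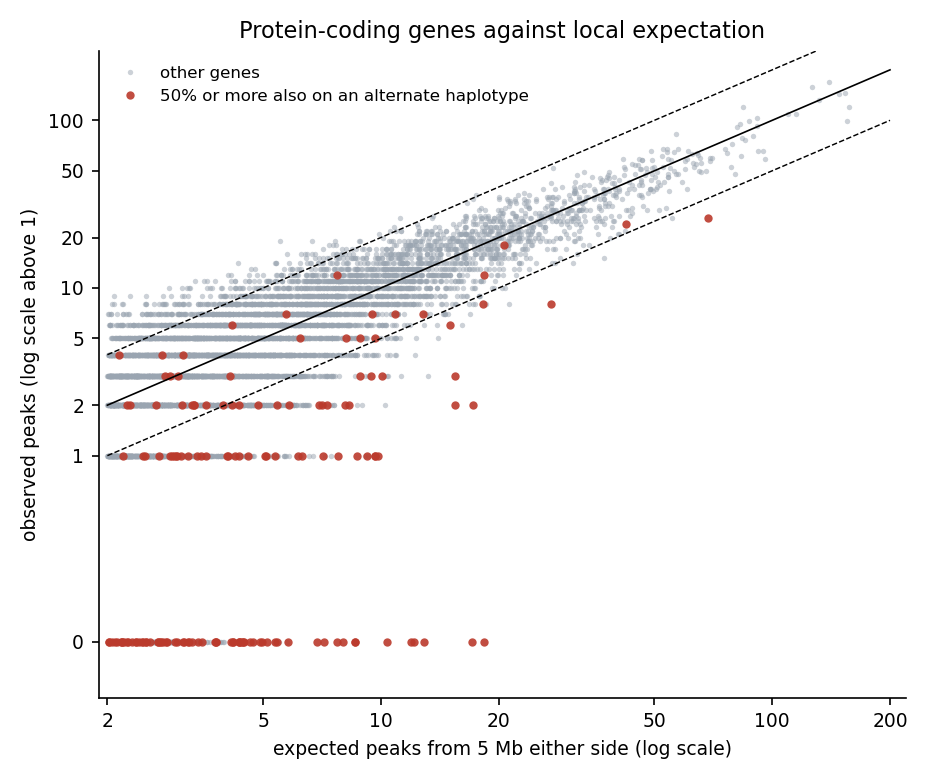
Peaks observed in each of 7389 protein-coding genes (vertical axis, log scale above 1) against the number expected from 5 Mb on either side (horizontal axis, log scale). The solid line is equality, dashed lines are 2 times and 0.5 times, and red points are genes with 50% or more of their single-copy 32-mers also on an alternate haplotype, of which 119 lie at or under the lower line and 0 at or above the upper.

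Genes were compared with their own surroundings. For each protein-coding gene the expected number of summits came from the density of 5 Mb on either side on the same arm, the gene itself left out. With overlapping genes joined, so that each summit counted once, gene bodies held 64027 summits against 62128 expected, a ratio of 1.03 (1.02 to 1.04). Summed gene by gene the numbers were 67826 and 65747, since 3799 counts came from summits shared by overlapping genes. Ratios over sets of genes given here are such sums unless stated, and their intervals treat shared summits as separate. Of the 7389 genes expecting at least 2 summits, 405 (5.48%) held 2 or more times the expected number and 1147 (15.5%) held 0.5 times or less, and a Poisson spread around each expectation would put 237 and 1122 genes there. The high side thus had 1.71 times the formula's number and the low side 1.02 times. With only 1 Mb on either side as the comparison, 261 of the 405 genes were still at 2 times or more. Shorter genes had relatively more summits. The ratio was 1.15 (1.11 to 1.18) for genes of 5 to 20 kb, 1.06 (1.04 to 1.08) for 100 to 200 kb, and 0.902 (0.886 to 0.920) for those over 500 kb.

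The largest excess over 5 Mb on either side was in ERBB2, which encodes a receptor tyrosine kinase of the EGF receptor family. It held 9 summits where 2.07 were expected (4.34-fold, 1.98 to 8.24), 8 of them intronic and 1 exonic, and none within 1 kb of its start. Their fragment numbers ran from 3 to 5 and 8 of the 9 had single-copy summit windows. The next genes were RTN4RL1, a Nogo receptor homologue, with 9 against 2.28, and IWS1, a factor of transcript elongation, with 8 against 2.06. FAM193B had 8 against 2.07, ANGEL1 8 against 2.18, LRRC17 8 against 2.20 and GOLPH3, a Golgi phosphoprotein, 9 against 2.51. The list of 10 closed with ZNF789 (7 against 2.01), CXADR, the coxsackievirus and adenovirus receptor (10 against 2.88), and EFCC1 (7 against 2.02). Against 1 Mb on either side these 10 genes ran from 2.43-fold to 4.51-fold. Each of the 10 intervals excluded 1, but the genes were picked as extremes of 7389, and no peak in them reached a q of 0.05. None had single-copy words on an alternate haplotype in the gene itself, and the flanks were not checked for this. The 5 Mb beside ERBB2 take in an empty 17q stretch from 37341542 to 37846952, where 96.9% of such words were on an alternate haplotype. Against 1 Mb on either side ERBB2 had 3.16-fold, below RTN4RL1 at 4.51 and CXADR at 4.21.

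The 10 genes furthest below expectation all held 0 summits, and in all 10 at least 97.7% of single-copy 32-mers also occurred on an alternate haplotype. They fell in a few loci. On 12p, PRH1, which encodes a salivary proline-rich protein, would have held 18.3 summits, and the overlapping ENSG00000275778 and the bitter taste receptor gene TAS2R14 17.1 and 12.2. On 17q the same held for LINC02210-CRHR1 (12.9 expected), KANSL1, a subunit of a histone acetyltransferase complex (11.9), NSF, an ATPase of vesicle fusion (10.4), and MAPT, the gene of tau (8.002). On 16p they were BMERB1 (8.60) and PARN, a poly(A) ribonuclease (8.57), and on 14q TMEM179 (7.70). Among genes without such copies the emptiest, chosen after this was seen, had smaller expectations. SLC22A25 on 11q, an organic anion transporter gene, had 0 against 5.76, AVL9 on 7p 0 against 5.50, PCTP on 17q 0 against 5.36 and TSEN15 on 1q 0 against 5.34. Of the 1147 low genes, 1028 were left when genes with alternate copies were dropped, while all 405 high genes remained.

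Long stretches without a summit followed the same line. Among autosomal gaps between neighbouring summits, the 20 that were longest for their surroundings spanned 242.5 to 1054 kb and would each have held at least 15.98 summits. In 16 of them 50% or more of single-copy 32-mers were on an alternate haplotype, and 4 had 50% or more repeated 32-mers. The longest, on 17q from 45288138 to 46342341, ran across CRHR1, MAPT and KANSL1, with 69.7 summits expected. The next, 969.9 kb on 19q, held the leukocyte and killer cell immunoglobulin-like receptor genes, and several on 6p held the HLA genes. A stretch of 589.9 kb on 4q from 177867885 to 178457801 had neither feature. It expected 27.5 summits, had 0% of its words on an alternate haplotype and 10.3% repeated, and held no protein-coding gene.

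Genes of the pathways the study was about were close to their surroundings. Of 36 genes of the replication fork and the ATR-CHK1 response, 30 held a summit, where 64.8% of all protein-coding genes did, with 79 in all against 74.5 expected (1.06, 0.839 to 1.32). Of the 13 that expected at least 2, 1 was high and 4 were low, beside 5.48% and 15.5% of all 7389 genes, and their median ratio was 1.10, beside 1.00 over all genes. HLTF, a fork remodelling translocase, was highest (6 against 2.76). RAD17, which loads the checkpoint clamp, had 0 against 2.02, with 94.9% of its single-copy words on an alternate haplotype. GINS1, part of the replicative helicase, had 0 against 3.45, with 0% there, and its interval (up to 1.07) included 1. ATR, the kinase at the head of the response, had 8 intronic summits against 6.84 (1.17, 0.505 to 2.31). CDC45, part of the replicative helicase, had 1 exonic summit of 6 fragments against 2.45 expected. RPA1 and RPA2, subunits of the single-strand binding protein RPA, had 1 each, against 1.86 and 0.769. APOBEC3B itself had 2 against 0.759, 1 in an exon and 1 in an intron, with 5 and 7 fragments, and 1 of the summit windows was mostly repeated sequence.

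R-loop factors held 70 summits against 60.3 over 22 genes (1.16, 0.905 to 1.47), with 1 high and 0 low of the 11 that expected at least 2. That is too few to set against 5.48% and 15.5% over all genes. AQR, a helicase that resolves R-loops, was picked as the highest of the 11, with 8 against 3.04 (2.63, 1.13 to 5.18). Against 1 Mb on either side AQR had 2.19-fold. The lowest of the 11, XRN2, a nuclease of transcription termination, had 3 against 4.90. RNASEH1, the nuclease that digests the RNA strand of R-loops, had 0 against 0.731. Cell cycle genes held 70 against 57.2 over 20 genes (1.22, 0.954 to 1.55), 23 of them in CDK6, a G1 kinase gene that expected 13.7 (1.68, 1.06 to 2.52). Against 1 Mb on either side CDK6 had 1.32-fold, and it was picked as the highest of the 4 cell cycle genes expecting at least 2. CDC27, a subunit of the anaphase-promoting complex, had 4 against 4.37.

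Genes of the melanocyte lineage, the cells uveal melanoma arises from, held 52 summits against 39.7 over 14 genes (1.31, 0.979 to 1.72). Without OCA2, the 1 gene that has alternate copies, the ratio was 1.404 (1.03 to 1.87). The same step gave 1.047 over all protein-coding genes. It was added after the data were seen, and OCA2 held fewer summits than expected. The lineage genes as a set were not compared with 1 Mb on either side, so an excess of the set was not established. PAX3, a transcription factor of that lineage, was picked as the highest of the 9 genes expecting at least 2, with 8 against 2.82 (2.83, 1.22 to 5.58). Against 1 Mb on either side PAX3 had 2.37-fold. KIT, the receptor of stem cell factor, had 1 against 3.87. Of the 9 uveal melanoma driver genes, 4 held a summit (64.8% of all protein-coding genes did), 41 in all against 47.3 (0.867, 0.622 to 1.18). GNA11, a G protein alpha subunit gene, had 4 against 2.12, and CYSLTR2, a leukotriene receptor gene, had 0 against 3.49, whose interval (up to 1.06) included 1. The other empty genes of this list expected 0.696 summits or fewer each.

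Gene families picked by symbol differed more. The 74 histone genes held 34 summits against 19.3 (1.76, 1.22 to 2.47) and the 97 ribosomal protein genes 130 against 91.3 (1.42, 1.19 to 1.69). H2BC18 had 5 against 2.44 with 0 in single-copy sequence, and H2BC4 had 4 against 3.23. The 5 Mb beside H2BC4, a 6p gene, take in part of the 6p dip, which lowers its expectation. Against 1 Mb on either side H2BC4 had 0.905-fold and H2BC18, on chromosome 1, 2.12-fold. The histone genes as a set were not compared with 1 Mb on either side. How far their ratio rests on flanks that reach the dip was therefore not tested. RPS10-NUDT3, a 6p gene that overlaps NUDT3 and RPS10, had 16 of the 130, against 8.30. The 5 Mb beside RPS10-NUDT3 also take in part of the 6p dip, and against 1 Mb on either side it had 1.31-fold. RPS9, within the empty 19q stretch, had 0 against 2.57. Olfactory receptor genes held 102 against 148.8 over 413 genes (0.685, 0.559 to 0.832), and 100 against 132.6 (0.754, 0.614 to 0.917) without the 41 that have alternate haplotype copies. OR1F1 had 4 against 2.14 and OR5V1, in an empty stretch of 6p, 0 against 4.46. Contactins, neurexins and neuroligins, long genes of neuronal adhesion, held 435 against 590.5 over 21 genes (0.737, 0.669 to 0.809). CNTN4 had 27 against 18.8, and CNTNAP3C 2 against 6.05 with both in repeated sequence. The other 10 families had ratios from 0.899 (cadherins) to 1.37 (HOX genes), and each interval included 1. Neighbouring genes of a family share their surroundings, so the families are described by their counts alone. With overlapping members joined, the ribosomal protein genes had 127 summits against 90.6 (1.402, 1.17 to 1.67) and the clustered protocadherins, whose genes share most of their length, 25 in place of 300.

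Regions were examined without regard to genes as well. Of 24882 windows of 100 kb expecting at least 2 summits, 1045 (4.2%) held 2 or more times the number expected and 4450 (17.9%) 0.5 times or less, where a Poisson spread gives 753 and 3739. When windows with alternate copies were dropped, 4020 of the low windows were left and all 1045 high ones remained. The highest, 3q from 92.8 to 92.9 Mb beside the centromere, held 15 summits against 2.53, all in repeated sequence. The next 3 were mostly single-copy. A window on 10q at 124.6 Mb with LHPP, a phosphatase gene, and FAM53B held 13 against 2.65, all single-copy and of 4 or 5 fragments. On 2q, 222.0 to 222.1 Mb held 13 against 2.79 in sequence without a protein-coding gene. On 3q, the window at 119.2 Mb with UPK1B, B4GALT4 and ARHGAP31 held 10 against 2.20. The remaining 6 had ratios of 3.85 to 4.48 and included EBLN1 on 10p, and ZNF713, NIPSNAP2 and MRPS17 on 7p, while the other 4 held no protein-coding gene. No q of 0.05 or less occurred in the 10 windows.

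The GC content of a window and its genes went with its summits. In 10 equal sets ordered by GC, autosomal windows ran from 0.879 times the local expectation (0.862 to 0.896) at 31.2% to 35.5% GC up to 1.10 (1.09 to 1.12) at 48.3% to 63.95%, rising from each set to the next. Windows without a protein-coding gene had 0.930 (0.921 to 0.939), with 1 gene 1.00, with 2 to 4 genes 1.07 and with 5 or more 1.11 (1.08 to 1.14). Mean GC in those 4 sets was 38.6%, 40.6%, 43.8% and 49.4%, so genes and GC moved together, and the part of each was not tested.

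The spread of numbers over windows depended on scale. If summits fell independently at an arm's density, the variance of window counts over their mean would be 1. It was 1.02 (1.01 to 1.02) in windows of 10 kb, 1.41 (1.38 to 1.43) in 100 kb and 4.36 (4.14 to 4.61) in 1 Mb. Taken at the density of the segment instead of the arm, it was 1.003, 1.25 and 2.71. The ratio grows with window size wherever density varies, so the rise from 10 kb to 1 Mb does not show at which scale the unevenness lay. At 100 kb the arms ran from 0.874 on 18p to 2.90 on 9p, and 30 of 39 were under 1.5.

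Neighbouring summits were a median of 11.7 kb apart, with quartiles at 4.76 and 25.3 kb. Within 2 kb lay 10.4% of neighbours, where exponential spacing at each arm's density gives 11.01%, a ratio of 0.941 (0.926 to 0.956). Below 10 kb, the only bins with fewer pairs than given by that formula were those under 0.5 kb. Under 0.25 kb there were 3 pairs against 1924, and from 0.25 to 0.5 kb 742 against 1891. From 0.75 to 1 kb the ratio was 1.25, and it fell with distance through 1.17 at 2 to 3 kb and 1.04 at 7.5 to 10 kb to 0.917 at 40 to 60 kb. Peaks are at least 223 bp wide and nearby ones are joined, which removes the shortest distances by construction. Within 5 kb the ratio was 1.04 (1.035 to 1.054) at arm density and 0.999 at the density of the surrounding 1 Mb.

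**Figure D4:**
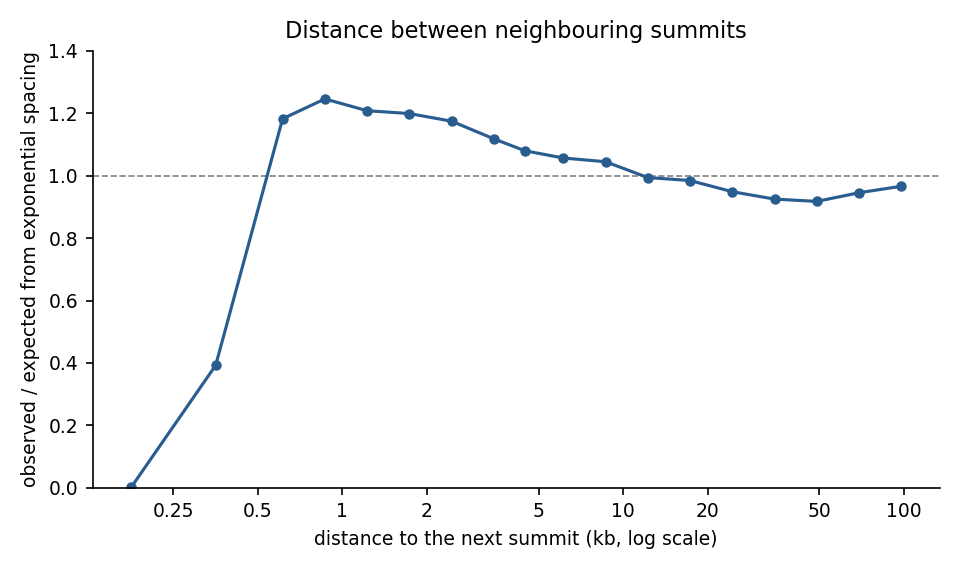
Number of neighbouring summit pairs at each distance divided by the number exponential spacing gives at arm density (horizontal axis in kb, log scale, dashed line at 1). The ratio is near 0 under 0.25 kb, peaks at 1.25 from 0.75 to 1 kb and is 0.917 from 40 to 60 kb.

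Clusters were chains of at least 4 summits with no gap over 2 kb. There were 241, where the formula for independent summits gives 219.3, a ratio of 1.10 (0.965 to 1.25). The formula also counts gaps within 0.5 kb, where the joining of peaks left 745 pairs, 0.195 times the formula's number. It therefore cannot show whether chains were in excess. Longer ones were further above the formula. Chains of 5 or more numbered 48 against 33.6 and those of 6 or more 14 against 5.53. The 4 densest arms held 175 of the 241. By arm there were 84 on 8q against 68.1 by the formula, 34 on 6p against 26.3, 32 on 8p against 18.0 and 25 on 1q against 26.6. A coding gene was crossed by 133, where 64027 of all 135327 summits lay in coding gene bodies. In 24 the sequence was mostly repeated, as it was at 14.8% of all summits. The longest held 9 summits in 9.38 kb on 8p, in single-copy sequence at LINC00589 and LINC02099, with 6 fragments or fewer each. The second held 8, all repeated, at POTEB3 on 15q, a gene with near-identical relatives. The third held 7 in RIMS2 on 8q, which encodes a protein of synaptic vesicle release. Among those of 6 was the run of mitochondrial pseudogenes on 1p from MTND1P23 to MTATP6P1, and a chain in DDX59 on 1q.

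Summits were denser at gene starts. Within 1 kb of a protein-coding transcription start site (TSS) there were 72.0 per Mb, from 2521 summits, against 52.9 per Mb at 10 to 50 kb from any such site, a ratio of 1.36 (1.31 to 1.42). In the profile, density was 79.2 per Mb (73.4 to 85.4) in the 0.5 kb upstream and 77.4 (71.8 to 83.4) in the 0.5 kb downstream, 62.96 at 0.5 to 1 kb upstream, and 55.4 at 3 to 5 kb downstream. The excess was of similar size at each fragment number, from 1.302 (1.21 to 1.404) at 5 fragments to 1.505 (1.34 to 1.69) at 6 or 7. At 8 or more fragments 17 summits gave 1.296 (0.794 to 2.12), which includes 1. By p, the 1155 peaks with p at most 1e-05 had 13 summits near a start and a ratio of 1.01 (0.581 to 1.77), so an excess was not detectable there. Summits in single-copy windows gave 1.501 (1.44 to 1.57). The lengths near and far from a start still included repeated sequence, so this value cannot be set against 1.36 as a stronger excess.

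Bases at the summits were slightly richer in GC than their own flanks. GC was 42.3% over the summit and 100 bases on either side of it and 41.5% in windows of the same size 2 kb to either side, a mean difference of 0.800 percentage points (SE 0.0248 over 135260 peaks, which are not replicates). It was 0.315 at 3 fragments, 0.705 at 4, 0.952 at 5 and 1.37 at 6 or 7, then 0.860 (SE 0.189) at 8 or more. In single-copy summit windows it was 0.303, with flanks that were not held to single-copy sequence. The rise was narrow, since GC was 41.6% at 375 bp on either side. TCA with its complement TGA, counted in the same windows, occurred 1.003 times as often at summits as in flanks (1.000 to 1.005). By the base before it, GTCA had 1.018, CTCA 1.016, TTCA 0.992 and ATCA 0.991, each counted with its complement. Among single-copy peaks with p at most 0.001 the order was another, with GTCA at 1.04, CTCA at 0.986 (0.977 to 0.995) and TTCA and ATCA at 1.00. CCC with GGG had 1.047. The hexamers TATATA and ATATAT were the least represented over all peaks, at 0.585 and 0.609 times the flanks. Among single-copy peaks with p at most 0.001 they had 0.540 and 0.588, and CGGCTA (0.466) and CGAGTA (0.512) were lower. Single-copy was judged at the summit window and not in the flanks. Words common in repeated sequence are therefore fewer at these summits by construction, and the single-copy values cannot be read as a preference.

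**Figure D5:**
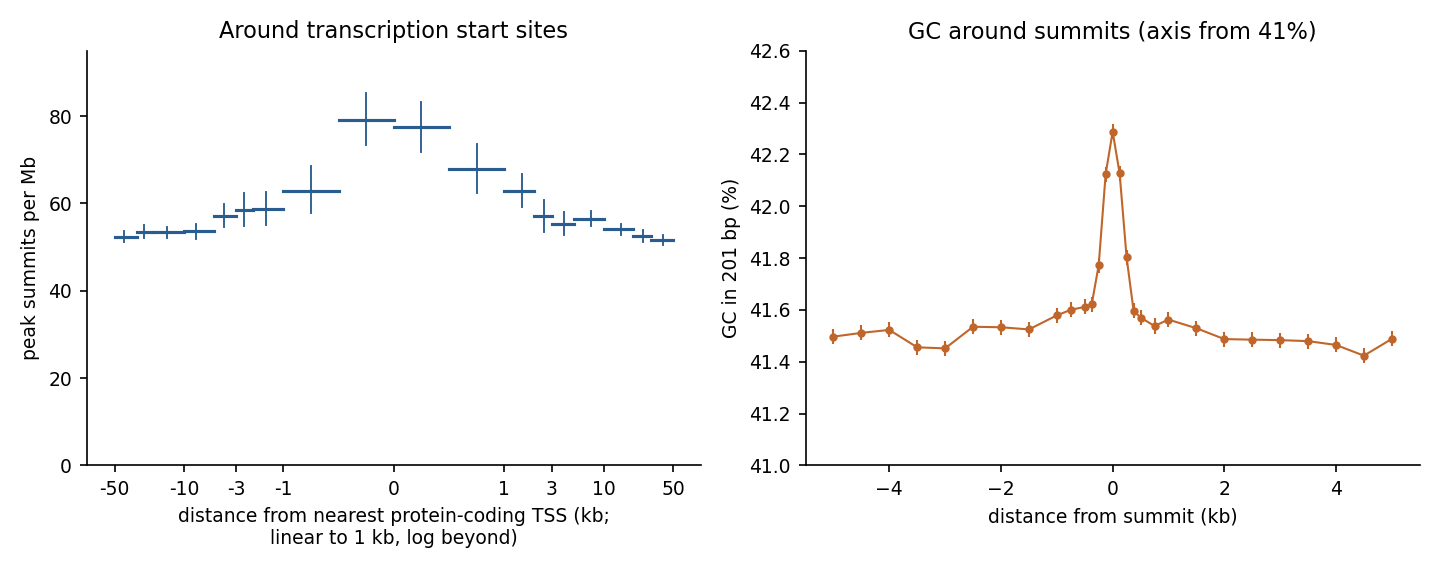
Left, summits per Mb by distance from the nearest protein-coding TSS (points by bin, horizontal axis on a log scale beyond 1 kb, bars are 95% Poisson intervals), highest at 79.2 per Mb in the 0.5 kb upstream. Right, mean GC in windows of the same size by distance from the summit (bars are SE over peaks, axis from 41%), with 42.3% at the summit.

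Strong peaks were few and of another kind. There were 205 peaks with q of 0.05 or less on chromosomes 1 to 22, X and Y. Of these, 57.6% (Wilson interval 50.7 to 64.1) had mostly repeated sequence at the summit, against 14.8% of all peaks, and 40.98% lay within 3 Mb of a centromere block, against 5.82%. Chromosome 1 held 42 of them, and chromosome 8, with 11.2% of all peaks, held 9 (4.39%). After the mitochondrial copies, the next in rank were a pair at 143.2 Mb on 1q and one at 34.6 Mb on 16p, with 329 to 409 fragments over backgrounds of 168.4 to 212.1, all intergenic and 86.5% to 100% repeated. Of summits mostly single-copy in the reference, the strongest was an intergenic peak at 93470580 on 3q, with 401 fragments over 236.4. The second was in the centromere block of chromosome 4, with 109 over 42.9. Both backgrounds were far above the floor of 0.877. Single-copy was judged from the reference alone, so whether the cells hold further copies of these stretches was not tested. Next came the AKAP13 peak shown above, with 11 fragments over 0.877 (−log10 p 9.71). AKAP13 is a scaffold of protein kinase A. MUC3A, a membrane mucin gene on 7q, had 20 over 4.15 in an exon. SCARA3, a scavenger receptor gene on 8p, had 11 over 1.19 in an intron. BLTP3A on 6p, of the bridge-like lipid transfer proteins, had 10 over 1.047. The peak upstream of SHCBP1 and those on 18p, 18q and 2p each had 9 fragments over the floor, as did other peaks of equal −log10 p that are not named.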

How the data were processed

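ChIP-seq was done by the authors in 92.1 cells with an A3B antibody and with rabbit IgG, 1 library each. Per the labels and the study's methods, paired-end reads were checked with FastQC 0.11.9 and aligned to GRCh38 with Bowtie2 2.2.5, duplicates were removed with Sambamba, and peaks were called with MACS2 2.2.7.1 against IgG at a p of 0.05. Filters on mapping quality and read totals are not given in the sources used here. The score deposited by the authors is the integer part of 10 times −log10 p. The deposited fold ratio is that of summit fragments to background with 1 added to each. At the summit, the authors' file also gives MACS2's −log10 p-value, and a −log10 q-value adjusted over tested positions.

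Fragments and background were recovered from fold and p. Densities used sequence outside gaps, and arms were split at blocks of 171 bp periodicity. Genes were from GENCODE 44. Expected numbers came from the 5 Mb on either side, and calls needed an expectation of at least 2. The summit and 100 bases on either side were called repeated where 50% or more of its 32-mers recurred in the genome, and single-copy otherwise. For windows and genes 1 in 64 of all 32-mers was read, in bins of 10 kb. Intervals are 95% Poisson or Wilson and cover counting error only. Named were the 10 genes highest and the 10 lowest against expectation, the 10 highest windows, 5 chains, the 5 strongest peaks and the 10 strongest single-copy ones, list extremes, and genes of the study's text. Genes and lists were chosen with earlier results of these data known. Statistics were tested on simulated data. Alternatives covered p, q, single-copy summits, window and distance sizes, and the local comparison. Python 3.11.15 was used with numpy 2.4.6, scipy 1.17.1 and pandas 2.3.3.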

Additional observations from a re-analysis of the deposited data

Results flagged for a closer look

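Signal outside the chromosomes was found on unplaced and unlocalised sequences, which the comparisons above did not use. They held 21 peaks with a q of at most 0.05, from 560 peaks on 91 sequences. On 1 sequence fragments at a summit reached 391 and the background reached 288.2, maxima that need not belong to the same peak. They are listed because they lie outside every comparison. No control peak list was used here, so whether an IgG library alone would give such peaks was not tested.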

How the results depend on the processing

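Of 63 alternatives to 12 results, 26 moved a value by less than its counting interval, or a count by less than 1.5 times, 34 moved it further and 3 reversed it. With p at most 0.001 there were 37681 peaks, and with q at most 0.05 there were 227. The arm ratio was 7.38 at p at most 0.001. At q at most 0.05 it could not be had because an arm held 0 peaks. The TSS ratio was 1.42 at p at most 0.001, 2.25 (0.684 to 7.43, from 3 summits near a start) at q at most 0.05, 1.501 in single-copy windows, 1.20 with all annotated sites (1.199) and 1.20 within 3 kb (1.205). The GC difference was 1.04, 1.44 and 0.303 in the first 3 of these. The gene body ratio was 1.03 both summed over genes and with overlapping genes joined, 1.051 in single-copy windows, 1.04 with genes extended by 3 kb, 1.004 with flanks of 1 Mb, 1.049 at arm density, 1.047 without alternate copies, and reversed to 0.927 (0.700 to 1.20) at q at most 0.05. Window dispersion was 1.15 at p at most 0.001, 1.44 in single-copy windows, 1.02 and 4.36 in windows of 10 kb and 1 Mb, and 1.25 at segment density. A short spacing ratio on the other side of 1 was counted as reversed. The ratio was 1.002 (0.945 to 1.06, which includes 1) at p at most 0.001, and 1.04 within the wider distance of 5 kb. It was 0.973 in single-copy windows, 0.696 within 1 kb, 0.893 at the density of the surrounding 1 Mb and 0.915 at segment density. Chains fell to 6 at p at most 0.001, 48 with at least 5 summits and 14 with gaps of 1 kb. High and low genes numbered 125 and 444 at p at most 0.001, and 115 and 392 at an expectation of at least 4. High and low windows numbered 263 and 1108 at p at most 0.001. Fewer peaks leave fewer genes and windows with an expectation of at least 2. Single-copy settings dropped repeated summits but kept repeated sequence in lengths and flanks. Causes of other moves were not tested. Segment density, the loss of intervals with alternate copies and the joining of genes were added after the data were seen. No paired analysis was possible because there was a single library in each group. At a summit the median was 4 fragments, which limits what any single peak shows.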

Other observations

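Other gene classes were set against their surroundings in the same way. Long non-coding RNA genes held 27929 summits against 28446 expected (0.982, 0.970 to 0.993), and processed pseudogenes 407 against 362.9 (1.12, 1.02 to 1.24). Transcript models awaiting experimental testing, the class TEC in the annotation, held 207 against 147.7 (1.402, 1.22 to 1.61).

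Position along an arm made little difference. The last 1 Mb before chromosome ends had 1.01 times the density of its arm (0.963 to 1.054), and the stretch from 1 to 3 Mb had 0.944 (0.914 to 0.975). Within 1 Mb of a centromere block the ratio was 0.940 (0.895 to 0.987). The blocks themselves held 2429 summits at 34.9 per Mb.

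Repeated sequence over a whole window went with a modest difference. Among autosomal windows without alternate haplotype copies, those with under 10% of repeated 32-mers had 0.967 times the local expectation (0.957 to 0.976), those with 20% to 30% had 1.10 (1.09 to 1.12), and those with 50% or more had 1.03 (0.998 to 1.06).

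Peaks on alternate haplotypes were named after 23 chromosomes. The most were on copies from chromosome 8 (168 on 16 sequences), chromosome 17 (109 on 12) and chromosome 6 (77 on 10). Their density over all alternate sequence was 7.21 per Mb, beside 49.1 per Mb over autosomal arms.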
